A study of Mus musculus with 2 samples.

Results

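Mouse microRNA genes carry numbers in the order in which they were named, and the loci Mir5000 to Mir8999 are among the later names. All loci whose GENCODE M21 symbol falls in that range, with or without a suffix, were taken, by a rule on names that uses no measured value. The loci were chosen with earlier results of these data known. The rule gave 470 of the 2202 microRNA loci in the deposited count tables. The tables come from microRNA sequencing, which reads RNA shorter than 30 nt, of left cerebral cortex from female B6CASTF1/J mice aged 14 days, the first-generation hybrid of C57BL/6J and CAST/EiJ. There was 1 group of 2 libraries with no treatment and no genetic alteration given in the labels, so no comparison between groups was possible. The label of replicate 1 mentions several females and that of replicate 2 a single female. Both libraries carry the same donor record, and the spread between them may be partly technical.

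A canonical microRNA is cut from a long primary transcript by Drosha as a hairpin, which Dicer then trims to a short duplex, and 1 strand of the duplex guides Argonaute to messenger RNAs through its seed, the bases 2 to 8. A mirtron reaches Dicer by another route. Its hairpin is a short intron that the spliceosome removes and a debranching enzyme opens, so that splice sites rather than Drosha set its ends. In a tailed mirtron the hairpin lies against 1 end of a longer intron, and the remaining tail is removed afterwards. Many microRNAs with late numbers have been described as mirtrons, which is why the place of each hairpin in its host gene is given here beside its reads.

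The most abundant of these loci differed in sequence and in the kind of place they occupy. Their mature strands as RefSeq gives them on GRCm38.p6 are shown because these loci carried most of the reads, with the seed in capitals, and miR-5620-5p is added because its seed is that of miR-7689-5p. The counts are per locus, so the reads of the 5p and 3p strands of a hairpin were not separated.
mmu-miR-7689-5p: cCGAGGCAgccuggcuuag
mmu-miR-7689-3p: uUAGAGCCagacugccuggguuu
mmu-miR-5620-5p: aCGAGGCAggggcuuugacugug
mmu-miR-6540-3p: uCUGAAGCuugcuuaccucca
mmu-miR-7080-5p: gUAGGAGCuggagguggguuugg
mmu-miR-7080-3p: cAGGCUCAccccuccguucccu
mmu-miR-6944-5p: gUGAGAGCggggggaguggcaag
mmu-miR-6944-3p: uAACUCUUcccuugugcccucag
mmu-miR-6236: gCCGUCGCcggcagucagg

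Abundant hairpins that meet the end of an intron are shown from GENCODE M21 on mm10, with the first bases GT of the intron and its last bases AG in capitals where the hairpin holds them. Mir7080 (chr8:123130106-123130172, plus strand), Mir6944 (chr13:55477681-55477776, minus strand) and Mir7070 (chr8:85062086-85062171, plus strand) each fill a whole intron. Mir5617 (chrX:20863126-20863182, minus strand) begins an intron. Mir7044 (chr6:118085192-118085263, plus strand) and Mir6769b (chr8:71631047-71631106, minus strand) end one.
Mir7080 hairpin: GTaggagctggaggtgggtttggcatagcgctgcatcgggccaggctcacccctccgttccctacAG
Mir6944 hairpin: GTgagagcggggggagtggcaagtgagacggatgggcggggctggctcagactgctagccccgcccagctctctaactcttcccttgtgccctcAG
Mir7070 hairpin: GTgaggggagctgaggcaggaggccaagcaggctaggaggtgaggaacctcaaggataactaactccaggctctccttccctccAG
Mir5617 hairpin: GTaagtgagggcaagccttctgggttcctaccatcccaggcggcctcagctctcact
Mir7044 hairpin: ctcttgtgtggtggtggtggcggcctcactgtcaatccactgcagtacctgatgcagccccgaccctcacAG
Mir6769b hairpin: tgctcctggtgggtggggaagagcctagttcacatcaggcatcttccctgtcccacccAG

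The libraries held 7745369 and 9627908 reads in replicates 1 and 2, of which 2740332 (35.4%) and 3207941 (33.3%) were assigned to a microRNA locus on the RNA strand. Reads that mapped to several places, 40.6% and 37.9% of the libraries, are counted apart and belong to no locus. Levels are counts per 1000000 assigned reads (CPM). They were not divided by hairpin length, since a read of this size spans most of a mature microRNA. The 10 neuron-enriched marker loci summed to 24077 and 37007 CPM, the liver locus Mir122 to 60.9 and 43.0 CPM and the 5 muscle loci to 28.8 and 31.2 CPM. Within these lists the 3 copies of Mir124a, the best known neuronal microRNA, had only 0 to 12 reads each in a library, and 4 of the 5 muscle loci had none. Reads that map to more than 1 copy of Mir124a would not be in these counts, which therefore do not give its full level. The 4 muscle loci without reads are copies of Mir1a and of Mir133a, so the same limit holds for the muscle sum. Markers of other cell types were present, with oligodendrocyte loci at 4262 and 1466 CPM, the endothelial Mir126a at 16741 and 9390 CPM and the erythroid loci at 952 and 564 CPM.

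Most loci of the late name range gave few or no reads. With detection set at 10 or more reads in each library, equal to 3.65 and 3.12 CPM, 56 of the 470 loci were detected (11.9%). Among all 2202 loci there were 389 detected, or 17.7%. Another 194 of the late-named loci had reads but did not reach that minimum, and 220 had no read in either library. With 0 reads a locus may still have had up to 3, a limit of 1.09 CPM in the first library and 0.935 CPM in the second, and expression below those levels was not detectable at this depth.

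The minimum cuts through a dense part of the range. The lower of the 2 counts was 10 to 19 reads for 26 detected loci and 7 to 9 reads for 21 loci that were not detected. Among the lowest detected loci, Mir5122 had 11 reads in each library and Mir6943 had 12 and 10. Of the loci just left out, Mir7063 had 9 and 30 reads, Mir8111 had 19 and 9, and Mir5100 had 7 and 21. There were 42 loci with 10 or more reads in 1 library alone.

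Detection in the earlier name classes was 282 of 547 (51.6%) for names below Mir1800 with the let-7 loci and 42 of 157 (26.8%) for Mir1800 to Mir3999. For loci that carry only a Gm number it was 6 of 1021 (0.588%). The late names therefore lay between these classes, as a description of the annotation and of these libraries. Within the late names the share was 7 of 51 (13.7%) for names from Mir5000, 24 of 207 (11.6%) from Mir6000, 23 of 180 (12.8%) from Mir7000 and 2 of 32 (6.25%) from Mir8000. Sequence copies were few, since 25 of the 470 loci shared an identical stretch of 20 nt with another microRNA locus, against 1059 of the 1732 other loci. Among loci without such a stretch, 54 of 445 late-named loci (12.1%) and 253 of 673 others (37.6%) were detected.

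All 470 loci together held 6202 assigned reads in replicate 1, a share of 0.226% (exact binomial 95% interval 0.221% to 0.232%), and 8114 reads in replicate 2, a share of 0.253% (0.247% to 0.258%). This is a summed level of 2396 ± 188 CPM (SD, n = 2). Molecular identifiers are not stated, and these intervals hold counting error alone. No late-named locus was among the 100 most abundant of the tables, 3 were among the first 200 and 15 among the first 300. The median level of the detected late-named loci was 8.82 CPM, against 149 CPM over all 389 detected loci.

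A single locus supplied much of this sum. Mir7689 held 43.0% of the late-named reads in replicate 1 (interval 41.8% to 44.3%) and 33.7% in replicate 2 (32.6% to 34.7%). Mir7689, Mir6540, Mir7080 and Mir6944 together held 63.0% (61.8% to 64.2%) and 60.0% (58.9% to 61.1%). The summed level without Mir7689 was 1290 and 1678 CPM, so the rest of the loci summed higher in replicate 2 while Mir7689 was lower there.

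**Figure D1:**
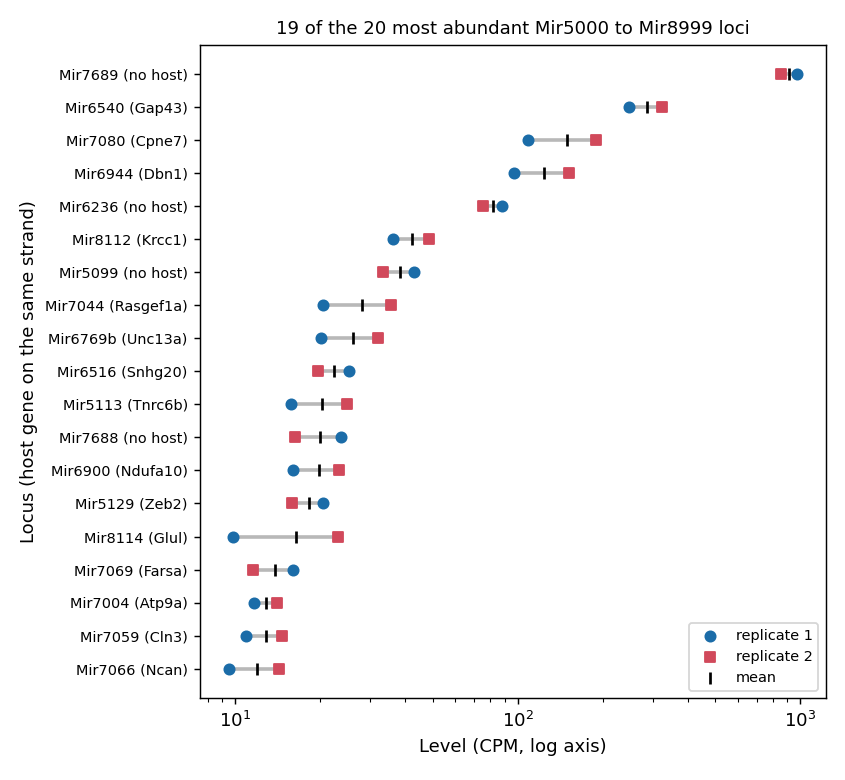
Level of 19 of the 20 most abundant late-named loci (CPM on a log axis) in replicate 1 (circles) and replicate 2 (squares), with the mean of both as a vertical tick and the host gene on the same strand in brackets. Mir7689 stands apart at 974 and 852 CPM, Mir6540, Mir7080 and Mir6944 lie between 96.7 and 325 CPM, and the loci from Mir7044 downwards lie at 35.5 CPM or less, where neighbouring ranges overlap.

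By position, 268 of the 470 hairpins lay in an intron of a protein-coding gene on the same strand and 74 overlapped an exon of one. Another 12 lay in an intron and 9 in an exon of a non-coding gene, and 107 had no host gene on their strand. Detection was 35 of 268 (13.1%) for introns and 13 of 74 (17.6%) for exons of coding genes, 0 of 12 and 1 of 9 for introns and exons of non-coding genes, and 7 of 107 (6.54%) without a host. The summed levels were 929 ± 195 CPM for introns of coding genes, 356 ± 110 CPM for exons of coding genes and 1088 ± 114 CPM without a host (SD, n = 2). Without a host, 91 of 107 loci had no read in either library, while in introns of coding genes 91 of 268 had none (85.0% and 34.0%). Over all 2202 loci, detection was 20.9% for introns and 20.8% for exons of coding genes and 10.6% without a host. For introns and exons of non-coding genes it was 37 of 96 (38.5%) and 41 of 116 (35.3%), well above the late-named shares. Over the same 2202 loci, 82.9% of those without a host and 52.8% of those in introns of coding genes had no read. The share without a read among host-less loci was thus near that of the whole table.

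The exon class depends on which transcript of a host is read. Of its 74 loci, 44 lay in an intron of another transcript of a host, and 24 were exonic through a transcript annotated as a retained intron. With introns counted first, 312 loci were intronic in coding genes and 30 stayed exonic, with 44 (14.1%) and 4 (13.3%) of them detected, so the higher share in exons was not kept. The 4 detected loci that were exonic by either order, Mir8112, Mir5113, Mir8114 and Mir5122, all lay in untranslated parts of exons. None of the 9 loci that overlapped coding sequence was detected, against 7 of 36 in untranslated parts with exons counted first. So few loci do not set the 2 parts apart, and at least 1 read was seen for 6 of 9 and 24 of 36 (66.7% each). The shares for these parts were not computed over all microRNA loci.

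**Figure D2:**
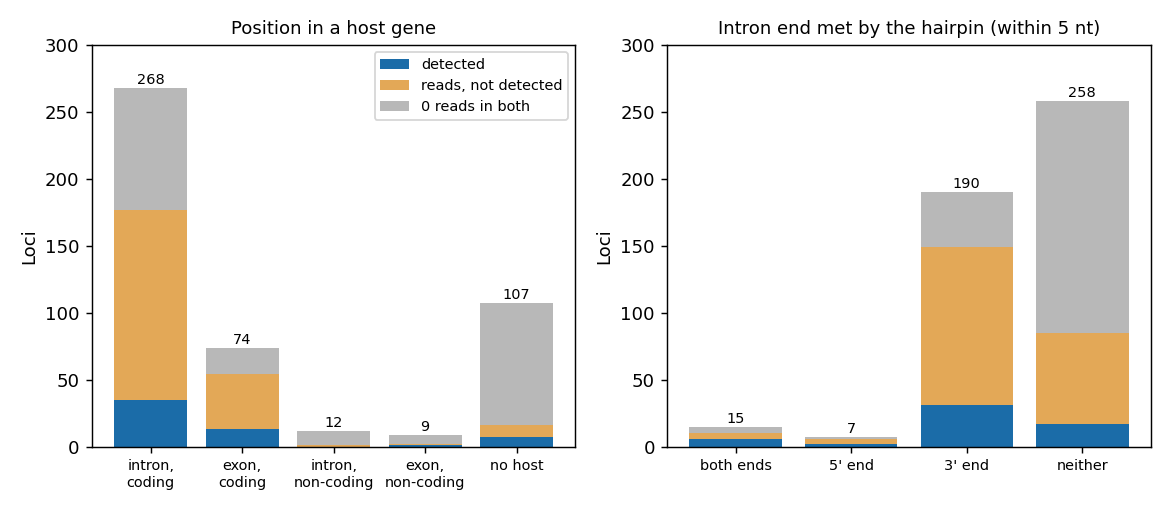
Number of late-named loci by position in a host gene on the same strand (left) and by the intron end that the hairpin meets within 5 nt (right), stacked as detected, with reads but not detected, and 0 reads in both libraries, with the total above each bar. Of the 107 loci without a host 91 had no read, while of the 190 hairpins at the 3′ end of an intron 41 had none.

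Hairpins at the ends of introns made up much of the late name range. A hairpin end lay within 5 nt of an annotated intron end of the same strand for 212 of the 470 loci, and 39 of the 212 were detected (18.4%). Of the 258 other loci 17 were detected (6.59%), and of the 114 that lay inside an intron away from its ends, 6 (5.26%). Over all microRNA loci the shares were 55 of 239 (23.0%) at an intron end and 334 of 1963 (17.0%) elsewhere. Inside an intron away from its ends it was 184 of 754 (24.4%), so the low share there was not seen over all loci. At least 1 read was seen for all but 47 of the 212 loci (22.2% without a read), while 173 of the 258 others had none (67.1%). Over all microRNA loci the shares without a read were close to these, at 21.3% and 71.3%. The intron-end loci held 30.2% of the late-named reads in replicate 1 (interval 29.1% to 31.4%) and 38.2% in replicate 2 (37.1% to 39.2%), at 825 ± 199 CPM. Outside the late names only 27 loci of the tables met an intron end, and 16 of those were detected (59.3%).

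Nearly all of these hairpins used the 3′ end of the intron. It was met by 190 loci at that end alone, 7 met the 5′ end alone and 15 met both. Detection was 31 of 190 (16.3%) at the 3′ end, 2 of 7 (28.6%) at the 5′ end and 6 of 15 (40.0%) at both. Over all microRNA loci it was 39 of 207 (18.8%), 4 of 9 (44.4%) and 12 of 23 (52.2%), so no late-named share was above that of the whole table. The small numbers at the 5′ end and at both ends leave those shares imprecise. Of the 205 hairpins that met a 3′ end, 195 ended exactly on the last base of the intron. Likewise 195 ended in AG, the usual last bases of an intron, against 7.36% of the 258 loci away from intron ends. That contrast follows from how both sets were chosen and is no separate result. RefSeq gives a 3p mature strand for 180 of the 205, and 140 of these end on the last base of the hairpin and 171 within 2 nt of it. For most of them the annotated 3p strand thus ends at or near the splice site, as in the 3p strands of miR-6944 and miR-7044.

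**Figure D3:**
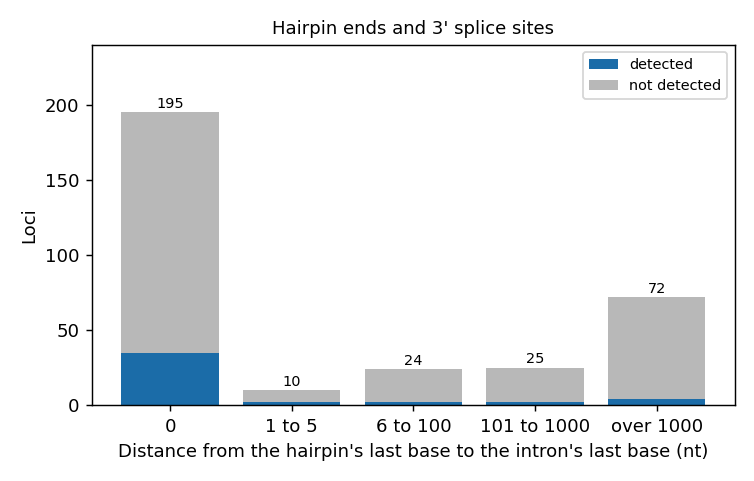
Number of late-named loci by the distance (nt) from the last base of the hairpin to the last base of the intron that holds it, for the 326 loci with such an intron, split into detected and not detected, with the total above each bar. The distance was 0 for 195 loci, of which 35 were detected, and over 1000 nt for 72 loci, of which 4 were detected.

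Intron length varied widely, from 66 to 36269 nt. In introns of 100 nt or less 13 of 48 loci at an intron end were detected (27.1%), in those of 101 to 500 nt 8 of 61 (13.1%), in those of 501 to 2000 nt 12 of 70 (17.1%) and in longer ones 6 of 33 (18.2%). These shares were not computed over all microRNA loci, so whether they are particular to the late names cannot be said. The median intron length was 374 nt for detected and 488 nt for undetected loci. The hairpins were shorter and richer in G and C than the other late-named hairpins, with medians of 65 against 84.5 nt and 57.1% against 52.2% GC. Within the intron-end loci the median GC content was 60.0% for detected and 56.7% for undetected hairpins, at median lengths of 66 and 65 nt.

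Whole-intron hairpins were few but included the highest of the intron-end levels. The 15 hairpins at both ends lay in introns of 67 to 137 nt, and 14 of them filled the intron exactly, including all 6 that were detected. Mir7080 is the 67-nt intron of Cpne7, which encodes a calcium-dependent phospholipid-binding copine, and had 298 and 607 reads in replicates 1 and 2. Its level was 149 ± 56.9 CPM (SD, n = 2), rank 196 of all loci. By the order that puts exons first it counted as exonic, through a retained-intron transcript.

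Mir6944 is a 96-nt intron of Dbn1, the gene of drebrin, an actin-binding protein of dendritic spines. It had 265 and 486 reads, or 124 ± 38.7 CPM, rank 201. Both loci were higher in replicate 2, and within each library Mir7080 had more reads than Mir6944. Below them came Mir7070, a whole 86-nt intron of the F-box gene Fbxw9, with 27 and 38 reads. Mir7068 (Cherp, 74 nt) had 12 and 27 reads and Mir6958 (Dennd6b, 73 nt) had 14 and 22. These 3 lay at 5.98 to 10.8 CPM, far below Mir7080 and Mir6944 in both libraries.

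At the 5′ end of an intron, Mir5121 and Mir5617 were detected. Mir5121 had 17 and 48 reads and begins 1 nt before an intron of Rpl13a, a ribosomal protein gene, but it overlaps the small nucleolar RNA Snord33 on the same strand and shares a stretch of 20 nt with it, so reads from the 2 genes could not be told apart. Mir5617 begins a 92-nt intron of Syn1, the gene of the synaptic vesicle protein synapsin I, and had 13 and 25 reads. Mir6977 (Ptprs) had 3 and 10 reads, Mir6927 (Mllt6) 2 and 1, and Mir6973b (Gfra4) 0 and 3. These last 3 did not reach the minimum.

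The 3′ end class held 31 detected loci, none with a mean above 28.0 CPM. Mir7044, at the end of a 705-nt intron of Rasgef1a, a guanine nucleotide exchange factor gene of the Ras family, had 56 and 114 reads (28.0 ± 10.7 CPM). Mir6769b, at the end of a 2392-nt intron of Unc13a, which encodes a protein that primes synaptic vesicles, had 55 and 103 reads (26.1 ± 8.51 CPM). Both were higher in replicate 2, and within each library their counts were close.

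Mir6900 in Ndufa10, a gene of respiratory complex I, had 44 and 75 reads. Mir5129 in Zeb2, a zinc finger transcription factor gene, had 56 and 51 reads, and its hairpin runs 5 nt past the end of the intron into the next exon. Mir7069 in Farsa, a subunit of phenylalanyl-tRNA synthetase, had 44 and 37 reads. These loci lay within 13.8 to 19.7 CPM and differed between the libraries in both directions. Mir7004 (Atp9a) had 32 and 45 reads, Mir7059 in Cln3, a lysosomal membrane protein gene, 30 and 47, and Mir7066 in Ncan, the gene of the brain proteoglycan neurocan, 26 and 46. Their means of 11.9 to 12.9 CPM could not be ordered.

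Of the hairpins that lie inside an intron away from its ends, Mir6540 was the most abundant. It lies on chromosome 16 at 42303362 to 42303469 on the minus strand, in a 48106-nt intron of Gap43, which encodes a protein of growing axons and presynaptic terminals. Its 676 and 1042 reads gave 247 and 325 CPM, with a mean of 286 ± 55.2 CPM (SD, n = 2) and rank 163. Both values were above those of every late-named locus but Mir7689. Mir7666 in Fgf20, a fibroblast growth factor gene, had 26 and 38 reads, and Mir7224 in B3galt1, a galactosyltransferase gene, 20 and 23. Transcripts of the host genes were not measured, since the libraries hold only short RNA.

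Mir7689, the most abundant late-named locus, had no host gene on its strand. It lies on chromosome 5 at 36301570 to 36301628 on the plus strand, opposite to an intron of Sorcs2, which encodes a receptor of the sortilin family. It had 2668 and 2732 reads, all on the RNA strand, or 974 and 852 CPM, with a mean of 913 ± 86.2 CPM (SD, n = 2) and rank 106 of 2202. In both libraries it was far above the next late-named locus. Its level was lower in replicate 2, a difference that the test between libraries below called. That test uses other library sizes than the CPM do.

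The other loci without a host were lower, and together held 533 and 499 reads. Mir6236 on chromosome 9 at 110281287 to 110281409 had 241 and 242 reads (81.7 ± 8.84 CPM), Mir5099 on chromosome 12 at 36816205 to 36816278 had 118 and 107 (38.2 ± 6.86 CPM) and Mir7688 on chromosome 10 at 93433107 to 93433162 had 65 and 52 (20.0 ± 5.31 CPM). These 3 have no annotated gene on either strand. Mir6240, also with no gene on either strand, had 32 and 38 reads. None of these 4 hairpins shared a stretch of 20 nt with another microRNA locus or with an annotated snoRNA, snRNA, scaRNA or rRNA gene. Only genes in GENCODE M21 were compared, so a match to ribosomal RNA or tRNA sequence outside that annotation could not be seen. Whether reads of these loci come from such RNA was not tested. Mir7240 opposite to Mast3 (23 and 17 reads) and Mir5620 opposite to Clcn4 (17 and 12 reads) complete the 7 detected loci. Counted over either strand, 67 of the 107 loci had no gene, with 4 detected at 160 ± 23.0 CPM in the class, and 40 lay opposite to a gene, with 3 detected.

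Among exonic loci, Mir8112 lies in an untranslated part of an exon of Krcc1 and had 99 and 155 reads (42.2 ± 8.62 CPM). It shares a stretch of 20 nt with another microRNA locus, and reads that map to both places would not be in its count. Mir5113 in Tnrc6b, a gene of the Argonaute silencing complex itself, had 43 and 80 reads (20.3 ± 6.54 CPM). Mir8114 in Glul, the gene of glutamine synthetase, an enzyme typical of astrocytes, had 27 and 74 reads (16.5 ± 9.34 CPM). All 3 were higher in replicate 2.

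Non-coding hosts contributed little. Of the 21 late-named loci in them 1 was detected (4.76%), against 78 of 212 (36.8%) over all microRNA loci. Those 212 loci held 38.4% and 35.6% of all assigned reads in replicates 1 and 2. Mir6516 lies in an exon of Snhg20, a host gene of small RNAs, and had 69 and 63 reads (22.4 ± 3.92 CPM), but it overlaps the annotated scaRNA Gm26083 on the same strand. Reads of Mir6516 and of that guide RNA of nuclear bodies could not be told apart in these counts. Mir5103 had 0 and 5 reads and Mir7211 had 1 and 2, and the other 18 loci of non-coding hosts had none.

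Several host genes held more than 1 hairpin, 12 in all, and in 4 of them 1 of the 2 was detected. In Skiv2l, an RNA helicase gene of the cytoplasmic decay machinery, Mir6970 fills a 67-nt intron and had 11 and 13 reads, while Mir6971 at the 3′ end of a 135-nt intron had 12 and 5. In Ankrd52, Mir6915 at the 3′ end of its intron had 13 and 23 reads and Mir6914 had none. In B3galt1, Mir7224 was detected and Mir6335 had no read. Hairpins of a shared host thus differed in whether they were detected, though with so few reads the Skiv2l pair cannot be separated.

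Seeds were compared for the 429 of 470 loci with a mature strand in RefSeq, 254 of them with both strands. Their 683 mature sequences held 616 distinct seeds, so most seeds occurred once. There were 69 loci with the seed of a lower-numbered mouse microRNA, 11 of them detected, and 114 that shared a seed with another late-named locus. Seed matches among the other loci or unrelated sequences were not counted, so these numbers are a description only. Abundant detected loci of the first kind, 4 in all, are shown with the lower-numbered microRNA under each, so that the strands can be compared beyond the seed, which is in capitals.
mmu-miR-5129-3p: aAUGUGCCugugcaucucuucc
mmu-miR-455-5p: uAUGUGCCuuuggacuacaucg
mmu-miR-7069-3p: cCUGCCCUgccaaccccuaca
mmu-miR-18a-3p: aCUGCCCUaagugcuccuucug
mmu-miR-6240: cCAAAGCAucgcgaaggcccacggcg
mmu-miR-330-3p: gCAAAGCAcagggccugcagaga
mmu-miR-7070-3p: cAGGCUCUccuucccuccag
mmu-miR-344g-3p: cAGGCUCUagccaggggcuuga

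In 3 of these 4 pairs the lower-numbered locus was far more abundant in both libraries. Mir455 had 423 ± 18.2 CPM against 18.2 ± 3.21 CPM for Mir5129, Mir18 had 165 ± 23.4 CPM against 13.8 ± 3.20 CPM for Mir7069, and Mir330 had 8448 ± 1320 CPM against 11.8 ± 0.119 CPM for Mir6240 (SD, n = 2). Mir344g had 13.9 and 11.2 CPM (38 and 36 reads) and Mir7070 had 9.85 and 11.8 CPM (27 and 38 reads), so their order differed between the libraries. These values are of whole loci and do not say which strand of a hairpin gave the reads.

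The 2 libraries were compared locus by locus with an exact binomial test (two-sided, on TMM library sizes from edgeR), which speaks of these libraries alone and covers counting error only. Of the 56 detected late-named loci 11 differed at an adjusted p under 0.05 (19.6%), 7 of them higher and 4 lower in replicate 2. Over all 389 detected loci the share was 58.4%, made up of 28.8% higher and 29.6% lower in replicate 2. The late-named loci have far fewer reads, with a median of 26.5 against 444.5 reads per library. Among loci with a mean under 100 reads, 5 of 49 late-named loci (10.2%) and 28 of all 128 (21.9%) differed. The median log2 ratio of replicate 2 over replicate 1 was 0.09 for the late-named and -0.01 for all detected loci, and 66.1% and 67.4% of them lay within 1.5-fold.

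With TMM and with DESeq2 size factors 7 late-named loci were called higher in replicate 2 and 4 lower, while library totals left 1 lower call. Mir8114 differed by a log2 ratio of 1.05 (exact binomial test, adjusted p = 0.0017) and Mir7044 by 0.63 (exact binomial test, adjusted p = 0.015). The whole-intron Mir7080 differed by 0.63 (exact binomial test, adjusted p = 1.1e-09) and Mir6944 by 0.48 (exact binomial test, adjusted p = 3.3e-05). Mir6540 differed by 0.22 (exact binomial test, adjusted p = 0.0033). Mir5121, named after its values were seen, differed by 1.10 (exact binomial test, adjusted p = 0.011).

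In the other direction Mir7688 had a log2 ratio of -0.72 (exact binomial test, adjusted p = 0.016), Mir5099 of -0.54 (exact binomial test, adjusted p = 0.011), Mir6236 of -0.39 (exact binomial test, adjusted p = 0.0055) and Mir7689 of -0.37 (exact binomial test, adjusted p = 6.2e-20). With library totals instead of TMM, which moves the median log2 ratio of all detected loci to 0.16, Mir7688, Mir5099 and Mir6236 were no longer past the threshold (exact binomial test, adjusted p = 0.066, 0.094 and 0.14), and 12 of the late-named loci differed, 11 higher and 1 lower, 8 of them among the 11 above. Over all 389 detected loci 236 then differed (60.7%), 159 higher and 77 lower, so the shift towards higher calls was shared by the other loci. With DESeq2 size factors and with the column without strand those 3 loci stayed past it. The sum of the neuron-enriched marker loci was also higher in replicate 2 and the sums of the oligodendrocyte, endothelial and erythroid markers were lower, at the values given above. Of the 10 neuronal loci 9 were higher, chiefly Mir128-1 at 5376 and 15159 CPM, while Mir132 was lower at 9788 and 8428 CPM. Of the 2 erythroid loci Mir451a was lower and Mir144 was higher, at 43.4 and 53.6 CPM. The part of these markers in the differences was not tested, and differences between libraries and between the females they came from cannot be told apart.

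**Figure D4:**
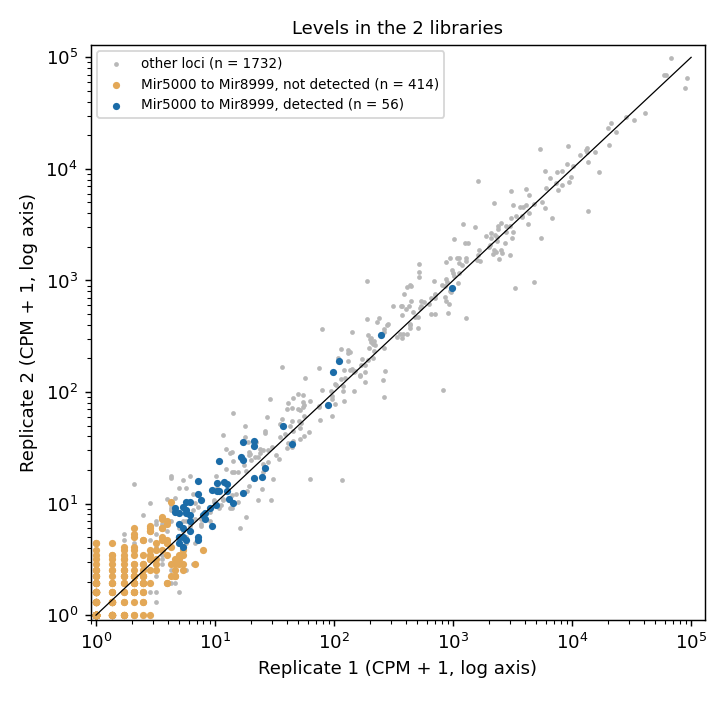
Level of every locus (CPM + 1, log axes) in replicate 1 (x) and replicate 2 (y), with the 56 detected late-named loci, the 414 undetected ones and the 1732 other loci as separate colours and the line of equal values. The late-named loci fill the lower left of the plot around the line, and Mir7689 at 974 and 852 CPM is the highest of them.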

How the data were processed

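MicroRNA sequencing libraries from 2 samples of 1 group were used. Each deposited file gives read counts, as whole numbers per microRNA locus, made by the authors with mm10 and GENCODE M21, per the file lists that came with them. The sources used here do not name the trimming settings, aligner or counter. The count columns have no names. Their meaning was taken from the values, and the column that counts the RNA strand was used. The 4 rows per file that name no gene (unmapped, several places, no feature, ambiguous) held 64.6% and 66.7% of the reads and were left out of library sizes.

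Positions, hosts and hairpins came from GENCODE M21 on mm10, in which all 2202 identifiers matched, and mature strands from RefSeq on GRCm38.p6. A host covers at least 50% of a hairpin on its strand, exons were taken before introns, and small RNA genes were not hosts. The overlap minimum and the order among several hosts (protein-coding first, clone names last) were set after the files were seen. Levels are CPM over assigned reads, and detection needs 10 reads in each library. The test between libraries was run in R 4.3.3 (exact binomial, Benjamini-Hochberg over 389 loci), with edgeR 4.0.16 TMM sizes and DESeq2 1.42.0 size factors as an alternative. It was run on simulated Poisson counts, which hold counting error only, as the test assumes. That run does not show how the test behaves with further variation between libraries. Tables used Python 3.11.15 with pandas 2.3.3 and SciPy 1.17.1, and figures matplotlib 3.10.9.

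Loci named in the text are the 20 most abundant, the 5 most abundant of each host class and intron-end class, the 10 largest log2 ratios among called loci with a mean of at least 50 reads, loci with at least 10 opposite-strand reads in each library, and the 5 most abundant with the seed of a lower-numbered microRNA. Pairs in 1 host, the loci beside the detection minimum and the others named were added after their values were seen. The loci, lists and tests were chosen with earlier results of these data known. A locus that meets these rules is counted but not reported by name here.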

Additional observations from a re-analysis of the deposited data

Results flagged for a closer look

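The opposite-strand column entered no comparison above, and 3 late-named loci had more reads there in both libraries than a count of 0 allows. The late-named loci together had 50 and 36 such reads, at 15 loci. Mir7654, which overlaps coding sequence of Arglu1, had 16 opposite-strand reads in replicate 1 and 15 in replicate 2, against 1 and 0 on the RNA strand. Mir5620, opposite to an intron of Clcn4, had 11 and 12 opposite-strand reads beside its 17 and 12 on the RNA strand. Mir8105, with no host, had 7 and 4 opposite-strand reads and none on the RNA strand. No samples of other tissue or treatment were at hand to set beside these counts.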

How the results depend on the processing

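The number of detected loci followed the minimum that defines it, with 183 loci at 1 read in each library, 98 at 5 and 12 at 50. It was 58 without regard to strand and 70 to 84 with either library left out. The summed level of 2396 CPM became 2588 CPM in the column without strand, whose library totals lack loci that overlap another strand, 4826 CPM with the 10 most abundant loci of the tables left out of the totals, and 2263 to 2529 CPM with either library left out. Exonic loci of coding genes fell from 74 to 30, and detected ones from 13 to 4, with introns counted before exons. Loci without a host fell from 107 to 67, and detected ones from 7 to 4, with hosts on either strand. Intron-end loci numbered 211 at 2 nt and 225 at 10 nt. Loci that differed between libraries rose from 11 of 56 (19.6%, against 58.4% of all loci tested) to 19 of 250 with 1 read in either library (7.60% against 31.9%), and were 9 of 12 at 50 reads (75.0% against 74.6%) and 11 with DESeq2 size factors (60.2% of all). The test between libraries gives no value with a library left out. No paired analysis was possible because there was 1 group. The 10 called loci chosen for their large log2 ratios kept the sign of the ratio with DESeq2 size factors, library totals and the column without strand. For the other named loci the sign was not compared between settings. The order of 2 detection shares turned with introns counted first, from 17.6% in exons and 13.1% in introns to 13.3% and 14.1%, and library totals moved the median log2 ratio of all detected loci from -0.01 to 0.16. Depth limits the late-named loci more than others, since most detected ones had under 100 reads per library. Reads that mapped to several places, the strands of a hairpin and overlapping small RNAs could not be assigned further.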

Other observations

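Further detected loci with low counts lay in host genes of several functions. Mir6982 at the 3′ end of an intron of Camk2a, a kinase of synaptic plasticity, had 11 and 23 reads. Mir7019 at the 3′ end of an intron of Pink1, a mitochondrial kinase gene, had 17 and 36 reads, and its 5p strand has the seed UCUGGGA in common with that of Mir6907 in Rrp1, which had 12 and 13 reads. Mir7000 in Mapk8ip1, a scaffold gene of the JNK pathway, had 12 and 16 reads. Mir6953 at the 3′ end of an 81-nt intron of Grina had 14 and 30 reads. None of these 5 passed the test between libraries.

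Late-named loci within 10 kb of another microRNA locus numbered 30 of 470, and 5 were detected, whereas 479 of all 2202 loci had such a neighbour, 166 of them detected.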
